A study of Mus musculus with 2 samples.

Results

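The JAK-STAT pathway was examined through 10 mouse genes: the interferon receptor gene Ifnar1, the kinase genes Jak1, Jak2 and Tyk2, the transcription factor genes Stat3 and Stat5a, and the feedback inhibitor genes Socs1, Socs2, Socs3 and Cish. The genes were chosen by symbol, and all 10 were found among the 55536 annotated genes of the gene tables. The RNA came from the nucleoplasmic fraction of bone marrow-derived macrophages, which are primary cells grown from the marrow of C57BL/6J mice. Lipid A was added at 100 ng/ml, and the cells were taken after 30 min. It is the part of bacterial lipopolysaccharide that the receptor TLR4 recognises. Ribosomal RNA was depleted and total RNA was sequenced. The series held 1 group of 2 libraries, named biological replicates 1 and 2. Replicate 1 started from 1 µg of RNA and replicate 2 from 500 ng. Other labels call the same fraction nuclear, and age and sex were not collected. The labels give the replicates a single donor entry and do not say that the cultures were separate, so their spread may be technical only.

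Many cytokine receptors have no enzyme of their own and carry kinases of the JAK family on their intracellular tails. Ligand binding activates the kinases, which phosphorylate the receptor and the STAT proteins that dock on it, and the STAT proteins then enter the nucleus and switch on genes. Genes of the SOCS family are among those targets, and their proteins bind kinases or receptors and shut the signal down. In macrophages, interleukin 10 acts through STAT3, type I interferon acts through IFNAR1 with TYK2 and JAK1, and GM-CSF acts through JAK2 and STAT5.

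A single group gives no contrast of conditions, and no test or p-value was made. Unstimulated cells were not analysed here, so the values are levels 30 min after Lipid A and no gene can be called induced. In bulk RNA, fewer cells with a transcript and less of it per cell cannot be told apart. Expected counts of annotated genes summed to 15846212 in replicate 1 and 14874879 in replicate 2. A count of 0 would allow up to 3 counts, which is 0.189 CPM in replicate 1 and 0.202 CPM in replicate 2, for counting error only. All 8 macrophage markers were detected, with summed levels of 3025 and 3706 TPM. Of the 8, 1 was more than 2-fold higher in replicate 2 in scaled counts, Lyz2 with 27257 and 53175 reads. Of 20 markers of T cells, B cells, neutrophils, fibroblasts and erythroid cells, 2 were detected, and 6 were at 0 in both libraries. The 2 were Cd4 and the neutrophil gene S100a9. All 20 summed to 26.6 TPM in replicate 1 and 40.4 TPM in replicate 2. Cd4 made 23.9 and 34.9 TPM of these sums, while the T cell markers Cd3e and Cd3g were at 0. Cd4 had 785 reads in replicate 1 and 1821 in replicate 2, and the neutrophil gene Ngp had 11 and 47. The part of these other markers in the results was not tested.

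Sequences that tell the transcripts apart come first, because several results turn on them. Stat3 makes a long alpha form, transcript Stat3-203, and a shorter beta form, transcript Stat3-202, which lacks most of the transactivation domain. They differ by 50 bases at the start of exon 23 of the 24 exons of Stat3-203, at chr11:100889541-100889590 on the minus strand of mm10. The first of these bases lies in codon 715. The capitals mark the bases that beta lacks, with 20 bases of coding sequence on each side, and the printed stretch spans chr11:100889521-100889905 across an intron that both forms splice out.
Stat3 alpha: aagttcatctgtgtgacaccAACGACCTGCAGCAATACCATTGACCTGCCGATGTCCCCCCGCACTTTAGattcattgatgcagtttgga
Stat3 beta: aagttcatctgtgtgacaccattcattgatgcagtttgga

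For Cish, the transcript with most of the reads keeps most of intron 1. Cish-201, a coding transcript with 3 exons, had the most TPM of the coding transcripts of Cish, and its intron 1 runs over 2889 bases, chr9:107297035-107299923 on the plus strand of mm10. Cish-202, annotated as a processed transcript with no coding sequence, holds 2772 of those bases and splices out the 223 bases of intron 2. Shown are the ends of intron 1, where the capitals mark exon bases of Cish-201. The upper sequence lies at chr9:107297015-107297054 and opens with the start codon of Cish-201, and the lower lies at chr9:107299904-107299943.
Cish intron 1, 5′ end: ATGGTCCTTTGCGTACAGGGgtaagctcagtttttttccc
Cish intron 1, 3′ end: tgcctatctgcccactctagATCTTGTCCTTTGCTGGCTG

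STAT proteins bind a palindrome with the letters TTCNNNGAA, which reads the same on both strands. The RefSeq promoter windows of GRCm38.p6 run from 250 bases before a RefSeq start site to 50 bases after it. Of the 10 genes, 9 had 10 windows in that table. The motif was in 3 of these 10 windows, from 3 of the 9 genes, against 8.30% of all 32851 windows (2726 windows). Cish held 2 copies, starting at positions 1 and 12 counted from the start site, and 150 of all windows (0.457%) held 2 or more. The Socs3 copy began at position -154 and the Ifnar1 copy at position -5. These positions count from RefSeq start sites, at 107296659 for Cish, 117969366 for Socs3 and 91485215 for Ifnar1. The GENCODE genes begin elsewhere, at 107296026, 117970047 and 91485238. Both Cish copies lie inside exon 1 of Cish-201, which runs from 107296026 to 107297034. The capitals mark the motif in Cish (chr9:107296654-107296683, plus strand), Socs3 (chr11:117969507-117969530, minus strand) and Ifnar1 (chr16:91485200-91485223, plus strand).
Cish: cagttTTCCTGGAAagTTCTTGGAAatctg
Socs3: gaaaccagccTTCTTAGAAgggag
Ifnar1: ggcgggggcgTTCACGGAAggggc
The kappaB consensus was found in 1 of the 10 windows, from Stat5a, against 4.51% of all windows. The AP-1 motif TGANTCA and the TATA motif TATAAA were found in none of them, against 7.81% and 13.6% of all windows. Both strands were searched. These matches describe letters and are not binding sites.

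Levels per length were compared as TPM, a read level corrected for transcript length and library total. By mean TPM the order was Socs3, Stat3, Ifnar1, Tyk2, Jak1, Stat5a, Jak2, Cish, Socs2 and Socs1. Of the 10 genes, 9 were detected, meaning TPM of at least 1 in both libraries, against 42.4% of the 22028 protein-coding genes. Socs1 was the gene below that limit. The 10 genes were chosen with earlier results of these data known, so this contrast is descriptive only. The highest and the lowest of the 10 both belonged to the SOCS family. Neighbours in the order were called separate where both values of the upper gene lay above both values of the lower, and 5 of the 9 neighbour pairs were. Those were Ifnar1 over Tyk2, Jak1 over Stat5a, Jak2 over Cish, Cish over Socs2 and Socs2 over Socs1. Socs3 stood above Stat3 within each library, but their ranges overlapped. The second transcript tables turned this order, with Socs3 at 0.754 times the TPM of Stat3 in replicate 1 and 0.994 times in replicate 2. In replicate 1 of those tables Socs3 came after Stat3 and Jak1, with 55.2 TPM against 73.2 and 60.7 TPM. There, transcripts not annotated as protein coding held 84.0% and 82.4% of Stat3 TPM in replicates 1 and 2. For Socs3 they held 1.89% and 3.60%. Stat3 and Ifnar1, Tyk2 and Jak1, and Stat5a and Jak2 changed places between the libraries.

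**Figure D1:**
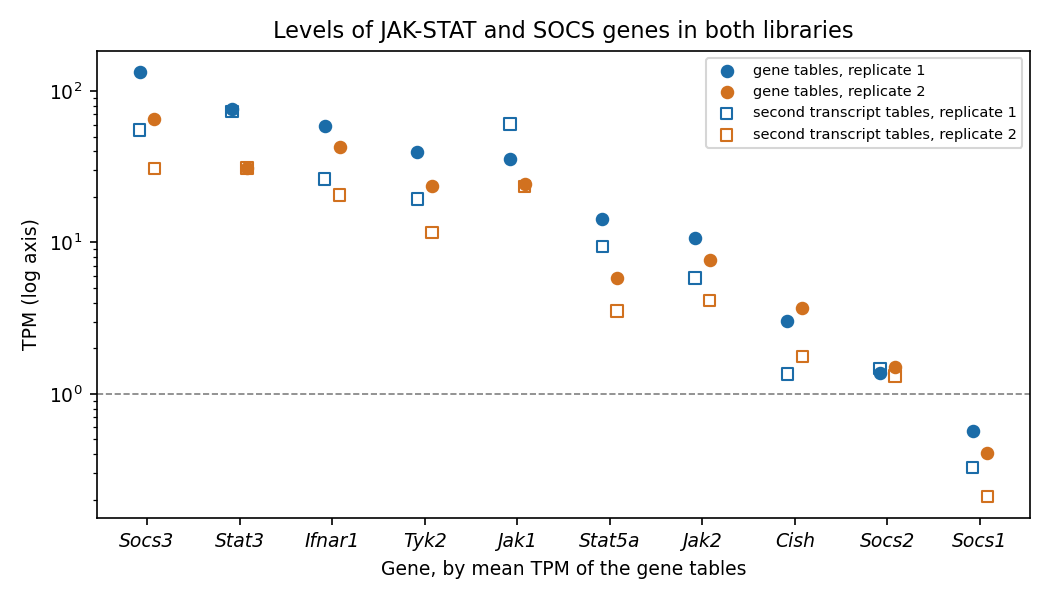
TPM on a log axis for each of the 10 genes, ordered by mean TPM of the gene tables, in replicate 1 (blue) and replicate 2 (orange). Circles are the gene tables, squares are sums over the second transcript tables, and the dashed line is the detection limit of 1 TPM. Socs3 sits highest by the gene tables at 134 and 65.4 TPM, and Socs1 sits lowest at 0.570 and 0.410 TPM.

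Set among the detected protein-coding genes, Socs3 stood above 96.2% of them in replicate 1 and 94.8% in replicate 2, and Stat3 above 92.8% and 86.6%. Ifnar1 stood above 89.9% and 91.0%, Tyk2 above 84.3% and 81.5%, and Jak1 above 82.5% and 82.1%. Jak2 was near the middle, above 53.1% and 51.0%, and Stat5a stood above 61.6% and 41.5%. Cish stood above 18.2% and 26.7% of those genes. Nuclear protein-coding genes held 27.6% of all TPM in replicate 1 and 20.2% in replicate 2. When TPM was rescaled to these genes alone, Ifnar1 had 211 in replicate 1 and 212 in replicate 2, Jak2 had 38.5 and 38.2, and Jak1 had 129 and 121. On that scale Socs3 still differed, with 484 and 324, as did Stat3, with 275 and 155. The other levels given here are on the deposited TPM scale.

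Ifnar1 (ENSMUSG00000022967.13, chromosome 16, 91485238 to 91507441, plus strand) encodes a chain of the type I interferon receptor. It had 3072 reads and 58.3 TPM in replicate 1, and 2823 reads and 42.8 TPM in replicate 2, a mean of 50.6 ± 11.0 TPM (SD, n = 2, as for all means here). Ifnar2, which encodes the partner chain, averaged 52.0 ± 2.62 TPM. Ifnar1 made 52.0% of the summed TPM of both chains in replicate 1 and 46.0% in replicate 2, so that the chains changed order between the libraries. Their ligand gene Ifnb1 had 16 and 18 reads, 1.79 TPM in replicate 1 and 1.58 TPM in replicate 2.

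Of the kinase genes, Tyk2 (ENSMUSG00000032175.11, chromosome 9, 21104068 to 21131243, minus strand) encodes the kinase carried by IFNAR1. It had 2456 reads and 39.4 TPM in replicate 1, and 1704 reads and 23.7 TPM in replicate 2, a mean of 31.5 ± 11.1 TPM. Jak1 (ENSMUSG00000028530.14, chromosome 4, 101152367 to 101265282, minus strand) serves interferon, interleukin 6 and interleukin 10 receptors. It had 2269 reads and 35.5 TPM in replicate 1, and 2023 reads and 24.4 TPM in replicate 2, a mean of 30.0 ± 7.90 TPM. Jak2 (ENSMUSG00000024789.13, chromosome 19, 29251828 to 29313080, plus strand) serves the GM-CSF and interferon gamma receptors. It was lowest, with 873 reads and 10.6 TPM in replicate 1 and 760 reads and 7.71 TPM in replicate 2, a mean of 9.17 ± 2.06 TPM.

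Within a library, Jak1 stood at 3.35 times the TPM of Jak2 in replicate 1 (95% exact counting interval 3.09 to 3.62) and 3.16 times in replicate 2 (2.91 to 3.44). Tyk2 stood at 3.71 and 3.07 times the TPM of Jak2. Jak1 and Tyk2 were close to each other, at ratios of 0.902 (0.852 to 0.956) in replicate 1 and 1.03 (0.965 to 1.10) in replicate 2. Of the summed TPM of the 4 kinase genes, Tyk2 made 38.9% and 37.2%, Jak1 35.1% and 38.3%, Jak3 15.5% and 12.3%, and Jak2 10.5% and 12.1%. Jak3, whose kinase pairs with the common gamma chain Il2rg, averaged 11.8 ± 5.59 TPM. The second transcript tables gave Jak1 65.1% and 54.1% of the family and Tyk2 20.8% and 26.9%, a Jak1 to Tyk2 ratio of 3.13 and 2.01 and a Jak1 to Jak2 ratio of 10.4 and 5.69. The 421-base transcript Jak1-206 had 31.8 and 7.88 TPM in the second tables, against 1.03 and 0.54 TPM in the first. Tyk2 shares 24326 bases with the antisense gene 1700084C06Rik, which had 7 reads in replicate 1 and 0 in replicate 2. Jak1 shares 4 bases with Raver2 on the other strand, and it spans Gm24468, listed at 0, and the pseudogene Gm12785, with 2 and 1 reads.

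Stat3 (ENSMUSG00000004040.16, chromosome 11, 100885098 to 100939540, minus strand) encodes the factor through which interleukins 6 and 10 act. It had 2830 reads and 76.0 TPM in replicate 1, and 1489 reads and 31.2 TPM in replicate 2, a mean of 53.6 ± 31.6 TPM. Stat5a (ENSMUSG00000004043.14, chromosome 11, 100859351 to 100885169, plus strand) encodes a STAT5 protein that GM-CSF activates. It had 595 reads and 14.4 TPM in replicate 1, and 395 reads and 5.83 TPM in replicate 2, a mean of 10.1 ± 6.04 TPM. Stat3 was 5.29 times Stat5a in replicate 1 (4.84 to 5.78) and 5.35 times in replicate 2 (4.79 to 5.99). The TPM ratio of the pair moved little while both levels were lower in replicate 2, but the ratio of their reads was lower in replicate 2. In the second tables the TPM ratio was 7.81 and 8.76, outside these counting intervals.

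Stat5b, a near-identical copy of Stat5a, had 13.2 TPM in replicate 1 and 10.1 TPM in replicate 2, above Stat5a in replicate 2 only. Reads that fit both copies may have been split between them, and Stat5a and Stat3 overlap by 72 bases at their ends on opposite strands. The sources used here do not say whether reads were counted by strand, so the level of Stat5a is uncertain on both counts.

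Socs3 (ENSMUSG00000053113.3, chromosome 11, 117966079 to 117970047, minus strand) encodes the inhibitor that blocks signalling through gp130, the shared receptor chain of interleukin 6. It had 5301 reads and 134 TPM in replicate 1, and 3201 reads and 65.4 TPM in replicate 2, a mean of 99.5 ± 48.2 TPM. Cish (ENSMUSG00000032578.7, chromosome 9, 107296026 to 107302784, plus strand) encodes CIS, an inhibitor of STAT5 signalling. It had 209 reads and 3.05 TPM in replicate 1, and 295 reads and 3.68 TPM in replicate 2, a mean of 3.37 ± 0.445 TPM.

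Socs2 (ENSMUSG00000020027.18, chromosome 10, 95385362 to 95417180, minus strand) encodes an inhibitor of growth hormone signalling. It had 19 reads and 1.38 TPM in replicate 1, and 30 reads and 1.51 TPM in replicate 2. The deposited credibility bounds for Socs2 ran from 1.70 to 4.92 TPM in replicate 1 and from 1.55 to 4.03 TPM in replicate 2. They left out the deposited TPM in both libraries but lay above the detection limit of 1 TPM. The bounds of Socs3 and Tyk2 also left out their deposited TPM in replicate 1. In coding transcripts alone Socs2 had 0.92 and 0.38 TPM, so its detection depended on the measure and rests on few reads. Socs1 (ENSMUSG00000038037.5, chromosome 16, 10782240 to 10785536, minus strand) encodes the main SOCS inhibitor of interferon gamma signalling. It had 25 reads and 0.570 TPM in replicate 1, and 22 reads and 0.410 TPM in replicate 2, a mean of 0.490 ± 0.113 TPM.

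The gap within the SOCS genes was wide. In TPM, Socs3 stood at 234 times Socs1 in replicate 1 (159 to 362) and 159 times in replicate 2 (105 to 255). It stood at 96.8 times Socs2 in replicate 1 (61.9 to 161) and 43.3 times in replicate 2 (30.3 to 64.3). It stood at 43.8 times Cish in replicate 1 (38.1 to 50.5) and 17.8 times in replicate 2 (15.8 to 20.1). In the second tables Socs3 stood at 37.5 and 23.4 times Socs2, outside these counting intervals, at 170 and 147 times Socs1, and at 41.0 and 17.4 times Cish. Of the summed TPM of the 8 SOCS family genes, Socs3 made 76.0% in replicate 1 and 65.4% in replicate 2. Socs6 came next with 8.81% and 14.0%, then Socs5 with 5.53% and 6.34%. Socs4 made 3.63% and 5.40%, and Socs7 3.18% and 3.34%. Cish made 1.74% and 3.68%, and Socs2 and Socs1 stayed below 2% in both libraries. In both libraries Socs6, Socs5 and Socs4 thus followed Socs3, ahead of Cish, Socs2 and Socs1. Measured by expected counts, Socs3 still made the most reads of the family, 64.0% and 50.1%.

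**Figure D2:**
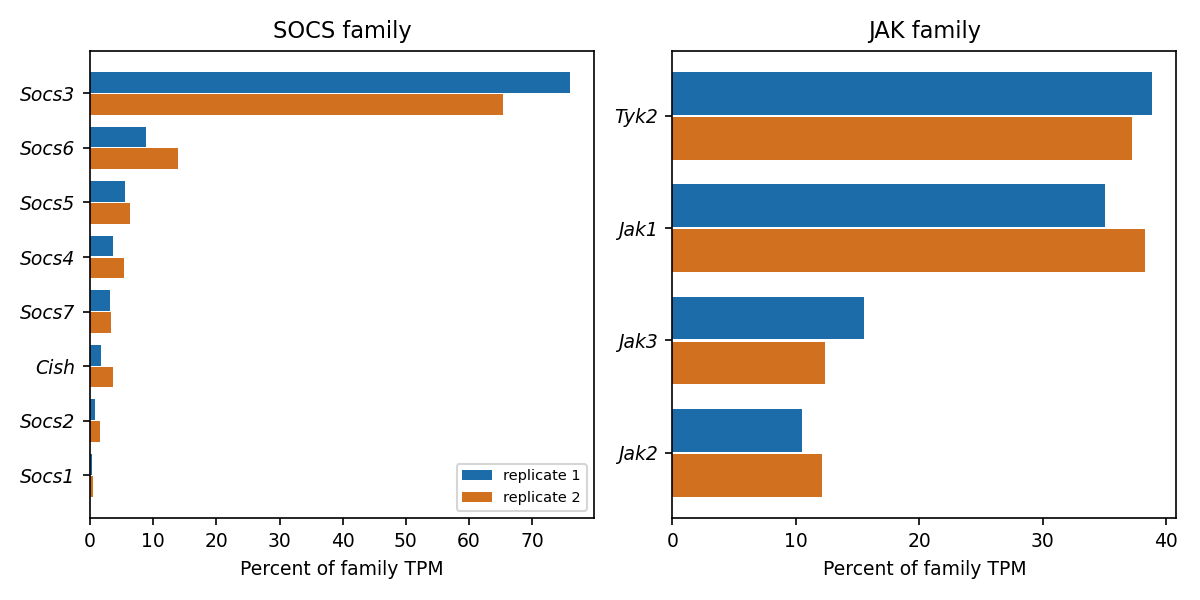
Percent of the summed TPM of each family made by each gene, in replicate 1 (blue) and replicate 2 (orange), for 8 SOCS and 4 JAK genes. Bars start at 0 and each panel has its own axis. Socs3 makes 76.0% and 65.4% of the SOCS sum, while Tyk2 and Jak1 share the top of the JAK panel at 35.1% to 38.9%.

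The tables also split each gene into annotated transcripts, and several genes had much of their TPM outside coding transcripts. For Stat3, transcripts annotated as retained intron held 63.7% of its TPM in replicate 1 and 63.8% in replicate 2. Cish had 75.4% and 65.3% in processed transcripts. Retained-intron transcripts held 32.3% and 30.1% of Ifnar1 and 25.6% and 30.7% of Tyk2. Socs3, Jak2 and Socs1 were at or near 100% coding, with a non-coding share of 0.18% for Socs3 in replicate 1 and 0 in the others. The median share outside coding transcripts was 24.2% over the 8 genes whose mean count reached 50, against 24.8% over 9006 protein-coding genes at that depth. By reads the medians were 16.4% and 10.5%, and they were 28.4% and 36.6% in the second tables, so whether the 8 genes lay above or below the background depended on the measure. Within the 8, Stat3 and Cish had the highest shares of TPM and Socs3 and Jak2 the lowest. In nucleoplasmic RNA, a retained intron cannot be told apart from RNA not yet spliced, and intron reads outside annotated transcripts are not counted in these tables. Short transcripts gain weight in TPM, and by reads the Stat3 retained-intron share was 21.5% and 21.4%.

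**Figure D3:**
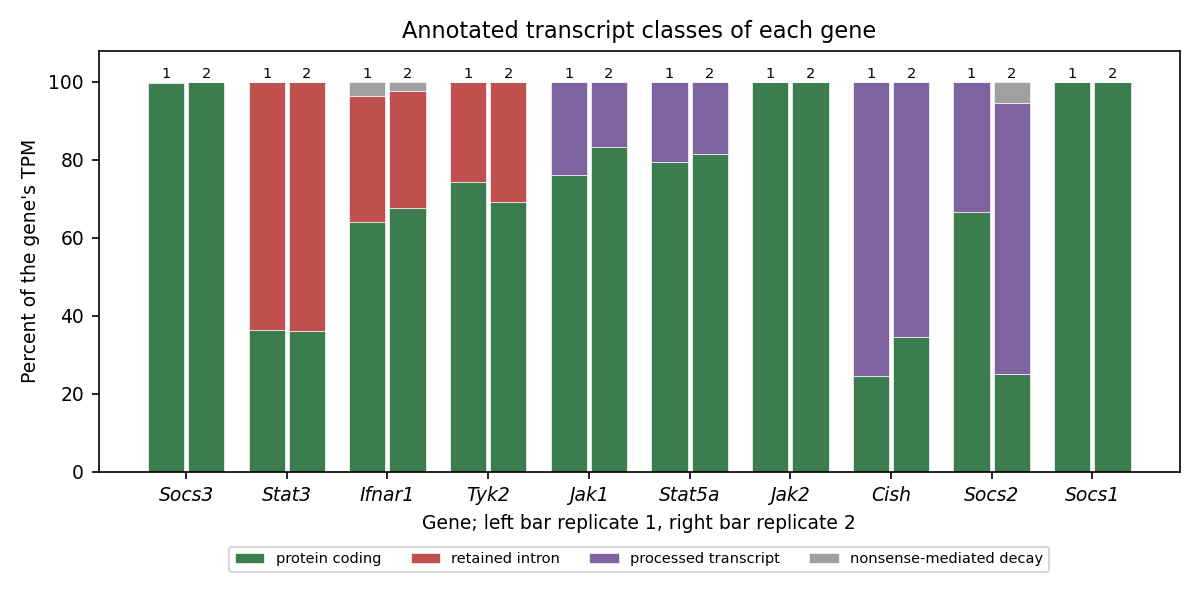
Percent of each gene's TPM in transcripts annotated as protein coding (green), retained intron (red), processed transcript (purple) and nonsense-mediated decay (grey), with replicate 1 as the left bar and replicate 2 as the right. Stat3 is mostly red at 63.7% and 63.8%, Cish mostly purple at 75.4% and 65.3%, and Socs3, Jak2 and Socs1 are green.

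Counting coding transcripts alone changed the order of levels. Socs3 stayed highest at 133 and 65.4 TPM, followed by Ifnar1 at 37.4 and 28.9 TPM. Stat3 then stood at 27.6 and 11.3 TPM, beside Tyk2 at 29.3 and 16.4 TPM and Jak1 at 27.0 and 20.3 TPM. Stat5a at 11.4 and 4.76 TPM and Jak2 at 10.6 and 7.70 TPM came next, and Cish at 0.75 and 1.28 TPM, Socs2 at 0.92 and 0.38 TPM and Socs1 at 0.570 and 0.410 TPM were the lower 3. With this measure 7 of the 10 genes were detected, and Stat3 no longer stood above both Tyk2 and Jak1 in either library.

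By the share of a gene's expression given for each transcript, 8 of the 8 genes whose mean count reached 50 had the same top transcript in both libraries. This compares with 77.3% of 8739 genes with 2 or more transcripts. By reads the top transcript of Stat3 differed between the libraries, and in the second tables those of Jak1 and Stat5a did. There the top of Stat3 was Stat3-214, which was at 0 in the first tables. By the given share, the simplest was Socs3, where Socs3-201 held 99.8% and 100%. This transcript has 2 exons. Jak2-202 held 100% in replicate 1 and 90.6% in replicate 2. Socs1-201 held 100% in both, although the second tables put most of its TPM on another transcript. Jak1-201 held 73.2% and 81.1%, and Jak1-205 held 15.1% and 6.55%. In the second tables Jak1-201 held 19.4% and 43.3%, and the short transcript Jak1-206 held 52.4% and 33.6%. Ifnar1-201 held 61.9% and 66.7%, and the retained-intron transcript Ifnar1-205 held 32.3% and 30.1%. Tyk2-203 held 63.9% and 61.2%, and the retained-intron transcript Tyk2-204 held 16.2% and 24.1%. Socs2, with 19 and 30 reads, was spread over many transcripts and its top transcript differed between the libraries.

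Cish-202, the transcript that holds most of intron 1, made 75.5% of Cish in replicate 1 and 65.4% in replicate 2, from 176 and 226 reads. The coding transcript Cish-201 made 13.7% and 23.9%, from 18.8 and 48.5 reads. Cish-204, also coding, made 10.7% in each. Most Cish reads were thus assigned, in the authors' tables, to a transcript annotated with most of intron 1 in and intron 2 out. In TPM over coding transcripts alone, Cish was under the detection limit in replicate 1, with 0.75 TPM, and stood at 1.28 TPM in replicate 2. The antisense gene Gm17041 and the pseudogene Gm17040 overlap Cish on the other strand, and both were listed at 0 reads.

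Stat3 was divided over more transcripts. The alpha transcript Stat3-203 made 23.0% of its TPM in replicate 1 and 19.4% in replicate 2, and the beta transcript Stat3-202 made 11.7% and 16.3%. The retained-intron transcript Stat3-208 made 14.4% and 14.1%, and Stat3-210 made 4.15% and 10.1%. Of the TPM in coding transcripts, which take in Stat3-201, a form of alpha with 1 codon fewer, beta made 32.2% in replicate 1 and 45.1% in replicate 2 (mean 38.6% ± 9.11). By reads the beta share was 39.8% and 52.9%, and in the second tables it was 19.9% and 30.2%. The share was higher in replicate 2 by all 3 measures. The beta transcript is also annotated with a longer 3′ end, so its share rests on reads there as well as on the 50 bases printed above.

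Of the 8 genes at the count minimum, Stat5a had the transcript whose share differed most between the libraries. Stat5a-202 made 27.7% in replicate 1 and 68.1% in replicate 2, Stat5a-203 made 25.9% and 9.92%, and Stat5a-206 made 25.9% and 3.52%. Stat5a-207 made 11.1% and 11.8%. Stat5a-206 is short and held 24.7 reads in replicate 1 and 1.76 in replicate 2, so its share rests on few reads. Stat5a-202 held 239 and 293 reads, and Stat5a-203 held 215 and 41.0 reads.

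The libraries were then compared gene by gene, as log2 of replicate 2 over replicate 1 after TMM scaling, a scaling of total counts that discounts the most extreme genes. None of the 8 genes whose mean count reached 50 passed 2-fold, against 9.02% of 10448 genes. Of the 8 genes, 7 lay below 0, against 52.4% of all genes, and their median was -0.30 against -0.03 for all genes. Stat3 was lowest at -0.86 (95% counting interval -0.95 to -0.77), and 5.98% of genes had a lower ratio. Socs3 followed at -0.66 (-0.73 to -0.60), Stat5a at -0.53 (-0.71 to -0.34) and Tyk2 at -0.46 (-0.55 to -0.37). Jak2 at -0.13, Jak1 at -0.10 and Ifnar1 at -0.06 lay near the median of all genes. Cish was the exception at 0.56 (0.31 to 0.82), and 83.6% of genes had a lower ratio. Socs2 and Socs1 lay under the count minimum, with intervals that spanned 0. All 8 genes lay between the 5th and 95th percentiles of all genes, -0.91 and 1.01.

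The scale mattered for this comparison. TPM was lower in replicate 2 in general, at a median log2 ratio of -0.44 over all genes at the count minimum and -0.64 over the 8. By the ratio of TPM, Stat5a at -1.30, Stat3 at -1.28 and Socs3 at -1.03 passed 2-fold, 3 of the 8 genes, against 17% of all genes in either direction and 15.2% in the lower direction. For Stat5a, the effective length by which TPM divides reads was 2420 bases in replicate 1 and 3244 in replicate 2. Its transcript shares also differed, as given above, and its TMM-scaled ratio was -0.53. How far length accounts for the gap between its ratios was not tested. The intervals given here hold counting error alone, because without molecular identifiers a read is not an independent molecule.

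**Figure D4:**
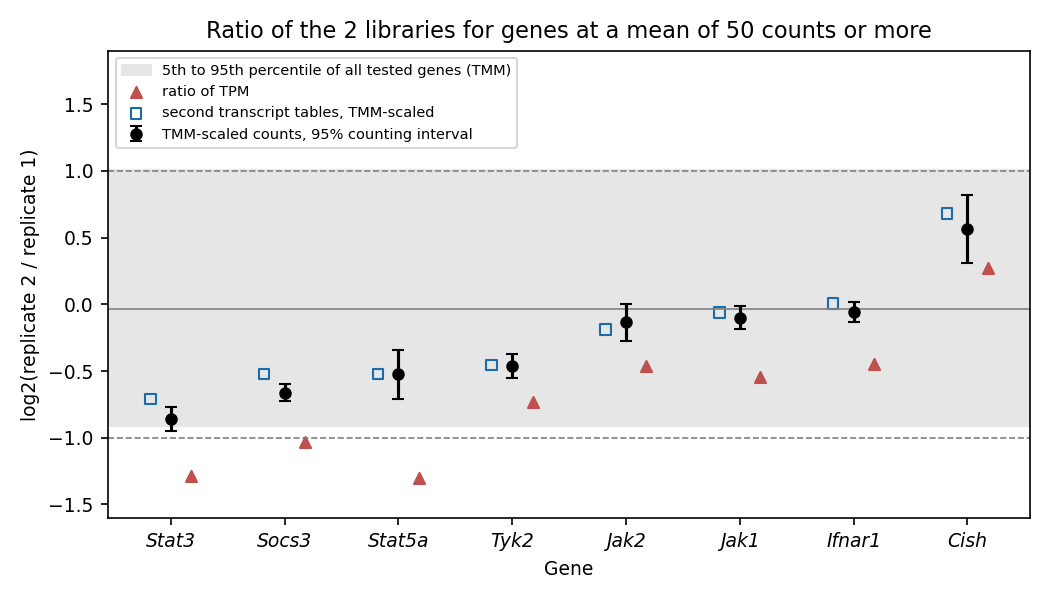
The log2 ratio of replicate 2 over replicate 1 for the 8 genes whose mean count reached 50. Black circles are TMM-scaled counts with 95% counting intervals, red triangles are ratios of TPM, blue squares are TMM-scaled counts of the second transcript tables, the grey band runs from the 5th to the 95th percentile of all tested genes, the grey line is their median and the dashed lines mark 2-fold. The black circles run from -0.86 for Stat3 to 0.56 for Cish, all inside the band.

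Around these genes, 49 of 60 other pathway genes were detected, against 42.4% of all protein-coding genes, and 49 reached a mean of 50 counts. These 60 genes were also chosen with earlier results of these data known, so their detection counts are descriptive only. Between the libraries, 2 of the 49 were past 2-fold higher in replicate 2 and 2 were past 2-fold lower, against 5.22% and 3.8% of all genes. Their median log2 ratio was -0.13 in TMM-scaled counts. Among 8 ligand genes, Il10, Osm and Ifnb1 were detected. Il10, which encodes an anti-inflammatory cytokine, was highest at 98.4 and 129 TPM, and Il11 was lowest at 0.03 and 0 TPM. Among 18 receptor genes, 14 were detected. Il10ra, the ligand-binding chain for interleukin 10, was highest at 182 and 104 TPM, and Osmr, the oncostatin M receptor chain, was listed at 0 in both libraries. The ligand gene Il10, the receptor gene Il10ra, and Stat3, Jak1, Tyk2 and Socs3 of the interleukin 10 route were thus all detected. The lowest of their values was 23.7 TPM, for Tyk2 in replicate 2. Of the type I interferon route, Ifnb1, Ifnar1, Tyk2 and Jak1 were detected too. Of the GM-CSF route, Jak2 and Stat5a were detected but the ligand gene Csf2 was not, at 2.87 and 0.32 TPM. The interleukin 6 gene Il6 was not detected either, at 0.64 and 0.27 TPM. The interleukin 6 receptor genes Il6ra, at 18.9 and 19.7 TPM, and Il6st, at 35.1 and 34.6 TPM, were detected.

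Among 4 other STAT genes, Stat2 was highest at 104 and 49.5 TPM, and Stat4, a factor of the interleukin 12 response, was lowest at 0.72 and 1.18 TPM. Irf9, a DNA-binding partner of STAT2, had 26.6 and 14.3 TPM. All 4 other SOCS genes were detected, from Socs6 at 15.5 and 14.0 TPM to Socs7 at 5.58 and 3.34 TPM. All 5 phosphatase genes were detected, from Ptprc, which encodes CD45, at 311 and 171 TPM to Ptpn11 at 9.40 and 6.00 TPM. Ptpn2, whose phosphatase acts on JAK1 and STAT proteins, was past 2-fold lower, with 519 reads in replicate 1 and 231 in replicate 2 (log2 ratio -1.10).

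All 9 other inhibitor genes were detected, from the ubiquitin ligase gene Cbl at 60.1 and 38.3 TPM to the phosphatase gene Ubash3b, which averaged 3.42 ± 0.587 TPM. Of 10 known STAT targets, 9 were detected. Mcl1, a survival gene, was highest at 604 and 385 TPM, and Cebpd was lowest at 0.60 and 1.31 TPM. Past 2-fold higher in replicate 2 were Fos, an immediate-early factor gene with 2970 and 8107 reads (log2 ratio 1.51), and Cebpd with 36.1 and 96.7 reads. Past 2-fold lower was Bcl2l1, a survival gene with 2680 and 987 reads (-1.38). The other 7 of the 10 were not past 2-fold.

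**Figure D5:**
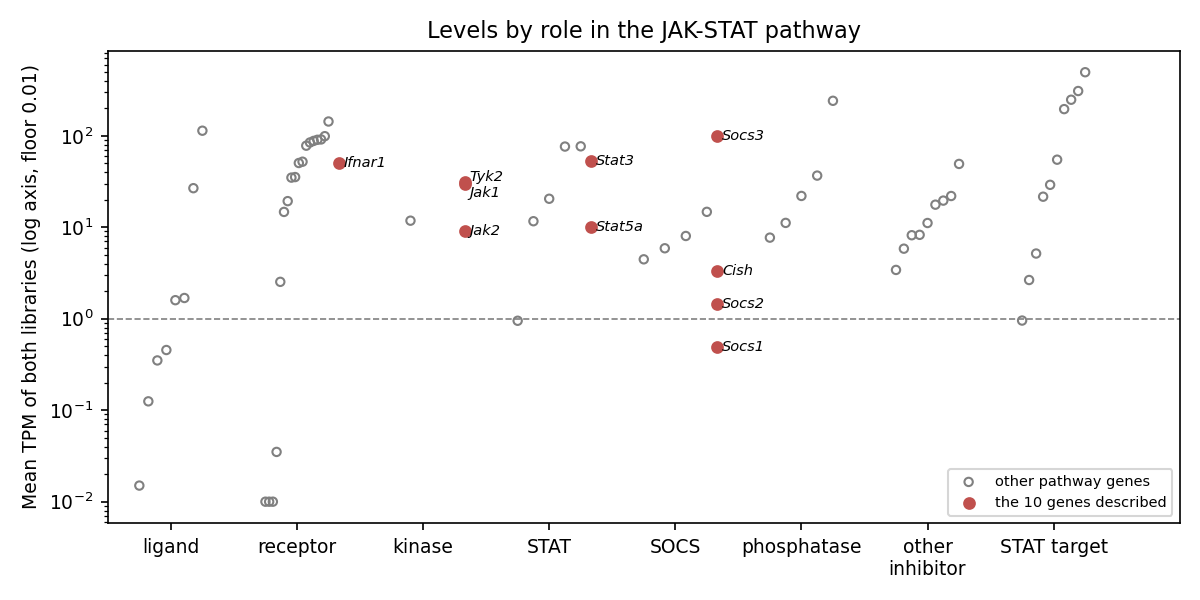
Mean TPM of both libraries on a log axis for the 10 genes described (red) and 60 other pathway genes (grey), by role, with genes at 0 drawn at 0.01. Irf9 is drawn with the STAT genes, and the dashed line marks 1 TPM. Socs3 stands at 99.5 TPM above every other SOCS gene, and Socs1 at 0.490 TPM below them all.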

How the data were processed

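For each library the authors deposited a gene table and a pair of transcript tables, made on mm10 with the annotation GENCODE M21 according to their text files. The gene tables hold expected counts, TPM and credibility bounds of unstated level as deposited, and the first transcript tables add each transcript's percent of its gene, per the file headers. The second transcript tables hold estimated counts and TPM as the authors deposited them. Their tools, strand use and read filters are not stated in the sources. The number of value columns without a sample was 0.

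Symbols came from the annotation, and all 55536 gene IDs matched. Features without a gene name held 1.19% of expected counts in replicate 1 and 0.213% in replicate 2 and stayed out of library sizes. The expected counts, rounded, were given TMM factors by edgeR 4.0.16 under R 4.3.3, with DESeq2 1.42.0 size factors as an alternative. Ratios were read where the mean count reached 50, and past 2-fold means an absolute log2 ratio above 1. With 1 group there was no test. Intervals are 95% and cover counting error. The scaling was tested on simulated data. Second-table values were summed over a gene's transcripts. FPKM was not used.

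The 10 genes and the gene lists were chosen with earlier results of these data known. All 10 were named. A further pathway gene of those lists is not reported here. Other pathway genes were named if highest or lowest of their role or past 2-fold between the libraries. Some were also named as partners of the 10 genes or as parts of a route or family. Transcripts were named if they held at least 10 percent of a gene in either library. Promoter sequences are from RefSeq, and transcript sequences from GENCODE M21.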

Additional observations from a re-analysis of the deposited data

How the results depend on the processing

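The count of 9 detected genes of 10 was 9 in the second transcript tables, at a limit of 0.5 TPM and without either replicate (9 to 9), and 7 at a limit of 5 TPM or with coding transcripts only. Separate neighbour pairs were 5 of 9, with 4 in the second tables, 6 over nuclear protein-coding genes and 4 with coding transcripts only. The count of genes past 2-fold between the libraries was 0 under library size, DESeq2 size factors, posterior mean counts and the second tables, and 3 with the ratio of TPM. The percent of all genes past 2-fold was 9.02 and became 17.0 with the ratio of TPM, 14.4 at a count minimum of 10 and 21.2 with no minimum; the last values take in genes with few reads. The same top transcript in both libraries was found for 9 of all 10 genes, 8 by reads and 7 in the second tables. The median share outside coding transcripts was 24.2%, with 16.4% by reads, 28.4% in the second tables and 24.6% to 24.8% when either replicate was left out. Of 128 single-gene levels and shares under an alternative, 72 moved by less than the SD of the libraries and 56 by more. The 72 take in 10 levels and 10 shares without replicate 1, and 10 of each without replicate 2. With 2 libraries, leaving 1 out always moves a mean by less than their SD, so these could not count as moved. All 10 levels over nuclear protein-coding genes moved, as that scale raises every level. Of 50 log2 ratios, 39 moved by less than the margin of their 95% counting interval and 11 by more. The 39 take in all 10 under each of library size, DESeq2 size factors and posterior mean counts. Library size and DESeq2 size factors shift every gene alike, by less than the smallest margin (0.0633, for Socs3). Their ratios could therefore not count as moved. Posterior mean counts changed ratios little, most for Cish, from 0.562 to 0.557. The ratio of TPM moved 8 of its 10 ratios, and 3 of 10 moved in the second tables. The cause of the moves was not tested. The alternatives on coding transcripts, family shares and the Stat3 beta share were chosen after seeing the data. The ratio of Socs3 to Stat3 was 1.76 and 2.10 in the gene tables, and 0.754 and 0.994 in the second tables. Socs1 and Socs2, with 19 to 30 reads a library, are limited by depth. No paired analysis was possible because the series holds 1 group.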
